A study of Mus musculus with 24 samples.

Results

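The late shared regions are stretches of chromatin that were listed as open in both Meckel's cartilage and forelimb cartilage of the mouse embryo at E14.5 (embryonic day) and in neither list of the mandible at E12.5. They were chosen from the 8 single-library ATAC-seq peak lists: all peaks on the autosomes and X were merged, and a region was kept when at least 2 of 3 Meckel's cartilage (MC) lists, at least 2 of 3 forelimb cartilage (FL) lists and 0 of 2 E12.5 lists had a peak in it. There were 2433 such regions among 157305 merged regions (1.55%), or among the 29765 regions listed in both cartilages (8.17%). The ATAC lists themselves chose these regions, so peak counts, ranks and signals from those lists are given below as descriptions.

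All embryos were wild type (wt) on the C57BL/6 background. MC bars were dissected at E14.5, forelimbs at E14.5 were freed of connective tissue, and at E12.5 the whole mandibular process was taken and digested with trypsin and collagenase. ATAC-seq, which uses a transposase to cut accessible DNA, covered 3 MC, 3 FL and 2 E12.5 libraries, and CUT&Tag for the histone mark H3K27ac covered 3 MC and 3 FL libraries at E14.5. Whether replicates came from separate embryos or from pools is not stated in the labels, so spreads between libraries may be technical. The description field of both E12.5 libraries gives a different stage and method from their titles and protocol, which name ATAC-seq of the E12.5 mandible and were followed. No E12.5 forelimb and no E12.5 H3K27ac list was used here. Absence at E12.5 therefore describes the mandible alone, and stage and tissue makeup cannot be told apart, since a whole process is set against dissected cartilage. For forelimb cartilage the name "late" refers to absence from another tissue.

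Meckel's cartilage is a rod of cartilage that forms in the mandibular arch from cranial neural crest and serves as the template of the lower jaw, whereas limb cartilage forms from lateral plate mesoderm. Both are made by chondrocytes, in which Sox9 with Sox5 and Sox6 turns on genes of the cartilage matrix such as Col2a1 and Acan. Much of this control lies in distal enhancers, which become accessible to transposase when transcription factors bind and carry H3K27ac when they are active.

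Promoters were rare among the late shared regions, and those that were found are the only stretches of this set whose sequence could be read. In the RefSeq promoter table of GRCm38.p6 (the build mm10), which gives 250 bases before and 50 after each start, 87 windows of 83 genes lay wholly under a late shared region. Of these windows, 43 belonged to genes with protein-coding symbols. The 5 windows printed here are the promoters of 3 genes known from chondrocytes, Col9a1, S100b and Cytl1, and a pair of promoters that hold the motifs discussed below, Aox1 and Cgref1. Capitals mark AP-1 (TGANTCA), NFI-type (TTGGCA, one arm of the palindrome) and SOX-type (ACAATG) motifs on either strand, and each sequence runs 5′ to 3′ on the strand of its gene.
Col9a1, chr1:24177360-24177659, + strand: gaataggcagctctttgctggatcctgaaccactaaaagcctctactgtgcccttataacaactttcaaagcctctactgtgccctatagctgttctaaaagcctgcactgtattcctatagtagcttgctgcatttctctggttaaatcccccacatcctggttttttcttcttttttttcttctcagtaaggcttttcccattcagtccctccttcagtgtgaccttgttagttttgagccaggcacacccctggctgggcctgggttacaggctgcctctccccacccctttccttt
S100b, chr10:76253586-76253885, + strand: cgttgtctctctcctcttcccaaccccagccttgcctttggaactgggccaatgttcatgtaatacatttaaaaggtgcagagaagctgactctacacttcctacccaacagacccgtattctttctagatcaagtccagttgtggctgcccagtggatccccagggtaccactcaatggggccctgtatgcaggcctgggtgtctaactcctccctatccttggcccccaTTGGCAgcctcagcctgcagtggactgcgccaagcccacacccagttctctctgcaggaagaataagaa
Cytl1, chr5:37735269-37735568, + strand: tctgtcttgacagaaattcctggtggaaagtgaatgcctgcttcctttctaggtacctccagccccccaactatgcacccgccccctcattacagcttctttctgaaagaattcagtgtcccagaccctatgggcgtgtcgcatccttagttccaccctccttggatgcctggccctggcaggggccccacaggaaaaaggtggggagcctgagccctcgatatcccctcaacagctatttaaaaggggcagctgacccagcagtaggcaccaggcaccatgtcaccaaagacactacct
Aox1, chr1:58029719-58030018, + strand: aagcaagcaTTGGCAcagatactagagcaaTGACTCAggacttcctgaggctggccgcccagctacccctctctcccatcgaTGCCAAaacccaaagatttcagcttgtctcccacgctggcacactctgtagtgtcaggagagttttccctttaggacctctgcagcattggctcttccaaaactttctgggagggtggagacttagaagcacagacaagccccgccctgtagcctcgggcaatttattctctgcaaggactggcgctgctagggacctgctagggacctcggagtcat
Cgref1, chr5:30945431-30945730, - strand: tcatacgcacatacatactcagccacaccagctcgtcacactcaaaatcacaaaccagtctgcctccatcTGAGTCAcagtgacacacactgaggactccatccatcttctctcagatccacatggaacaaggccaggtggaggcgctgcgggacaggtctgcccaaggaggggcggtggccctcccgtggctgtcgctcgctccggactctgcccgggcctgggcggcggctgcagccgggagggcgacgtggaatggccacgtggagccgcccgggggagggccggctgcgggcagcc

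Col9a1 encodes a chain of collagen IX, a fibril-associated collagen of cartilage. This promoter, one of 2 RefSeq windows of the gene, held none of the 3 motifs and no CpG, and its region was listed in 2 MC and 2 FL lists. S100b, a calcium-binding protein made by chondrocytes and glia, had its promoter listed in all 6 E14.5 lists and held 1 NFI-type motif. Cytl1, a secreted cytokine-like protein of chondrocytes, was listed in 2 MC and 2 FL lists, at a mean within-list percentile of 24.8 against 72.3 for Col9a1. The percentile is the place of a peak in its own list when the list is ordered by the authors' −log10 p, with 100 at the top. The Col9a1, S100b and Cytl1 promoters lay under pooled H3K27ac peaks of both cartilages. Aox1, an aldehyde oxidase, held 1 AP-1 and 2 NFI-type motifs, and Cgref1, a secreted growth regulator with calcium-binding EF hands, held 1 AP-1 motif; both were listed in all 6 lists, and the Cgref1 window was under H3K27ac in MC and not in FL. Other promoters of the set included those of Aspn, a small leucine-rich proteoglycan, and of Ecrg4, a secreted peptide precursor. Actc1, a skeletal muscle gene, Camp, Fyb and Tmprss2 were also among them. The chondrocyte genes printed above were picked by name and do not stand for the set.

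The promoters under late shared regions had a median of 6 CpG per window and a GC content of 52.0%. The 13407 windows under regions of both cartilages that were also in both E12.5 lists had 22 CpG and 62.7% GC, and all 32619 RefSeq windows had 7 CpG and 53.0% GC. Of 18 motifs searched on both strands, each counted once per window whether or not it overlapped another, AP-1 (TGANTCA) was in 23.0% of late shared windows, 4.05% of windows open at both stages and 7.85% of all windows. The NFI-type motif was in 33.3%, 10.1% and 14.1% of the same sets. FOX (TGTTTAC) was in 8.05%, 2.21% and 3.67%, whereas ETS (CCGGAAG) was in 2.3%, 16.9% and 8.92%. The SOX-type motif was in 8.05% of late shared windows, 6.18% of windows open at both stages and 12.2% of all windows. The AP-1 share rests on both E12.5 lists: it was 14.4% without E12.5 replicate 1 and 8.05% without E12.5 replicate 2, while it was 29.0% for regions in all 6 E14.5 lists. The NFI-type share was 22.5% and 14.3% without those replicates, and 25.8% for regions in all 6 E14.5 lists. These matches describe letters in 87 windows, which differ in base composition from the windows open at both stages. The shares for regions in all 6 E14.5 lists rest on fewer windows than that. Windows of a gene can overlap, as the 2 of Cgref1 do, and both of those held AP-1.

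The late shared regions ranked, by their median, below the regions open at both stages in every E14.5 list, and near the middle of the lists as a whole. Their median width was 1063 bp, between 150 and 4093 bp, and together they covered 2.77 Mb. They fell into 686 regions in all 6 E14.5 lists (28.2%), 329 in 3 MC and 2 FL lists (13.5%), 688 in 2 MC and 3 FL lists (28.3%) and 730 in 2 of each (30.0%). In MC replicates 1, 2 and 3 their median percentiles were 46.3, 35.1 and 42.8, and in FL replicates 1, 2 and 3 they were 60, 55.7 and 40. Regions of both cartilages that were in both E12.5 lists had medians of 75.7 to 84.7 over the same 6 lists. In FL replicates 1 and 2 the late shared median was above the middle of the list, and in the other 4 lists it was below. Those just inside the rule, in 2 MC and 2 FL lists, had a median width of 933 bp and percentile of 37.9. Just outside it, the 769 regions in 2 MC lists and 1 FL list had 848 bp and 34.6, the 1558 in 1 MC list and 2 FL lists had 830 bp and 35.2, and the 1661 in 2 MC, 2 FL and 1 E12.5 list had 1020 bp and 40.9.

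**Figure D1:**
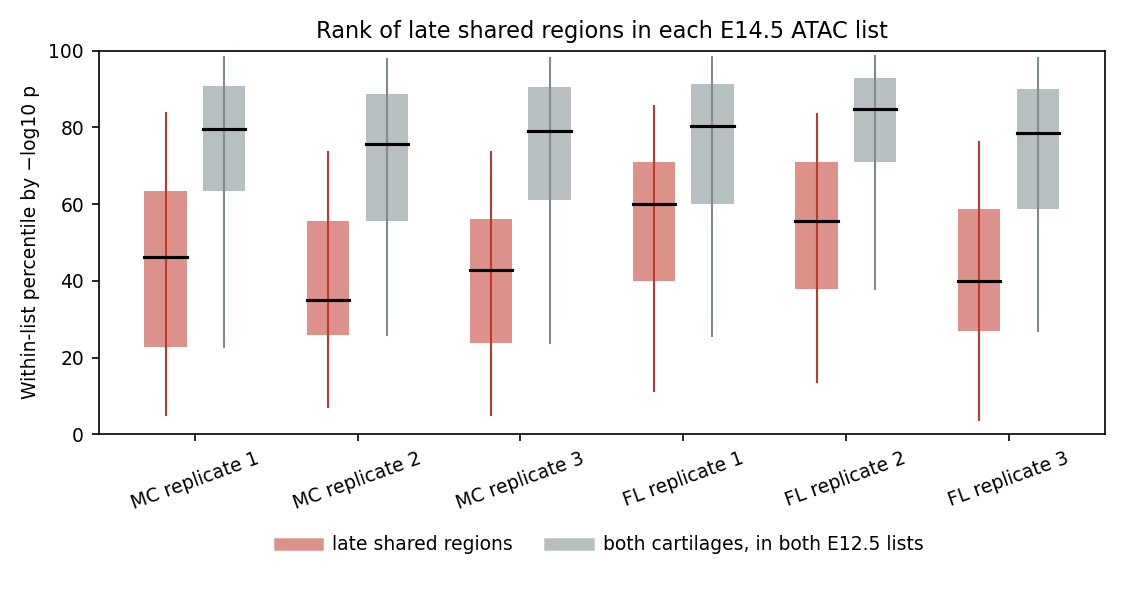
Within-list percentile by −log10 p (y axis) of late shared regions (red, left of each pair) and of regions of both cartilages in both E12.5 lists (grey, right) in each E14.5 ATAC list (x axis). Black lines are medians, boxes run from the 25th to the 75th percentile and thin lines run from the 5th to the 95th percentile; the red medians lie between 35.1 and 60, and the grey medians between 75.7 and 84.7.

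The lists had 43205 to 56039 peaks except FL replicate 2 with 70636 and the E12.5 replicates with 74706 and 70042. E12.5 replicate 1 stood apart, covering 85.6 Mb against 40.7 to 53.0 Mb in the other 7 lists. The depth of the libraries is unknown, and the number of peaks is the only guide to it. Of the regions of both cartilages, 903 were in the list of E12.5 replicate 1 alone and 7263 in that of replicate 2 alone. Without E12.5 replicate 2 the rule therefore gave 9710 regions, and without replicate 1 it gave 3358. Leaving out an E14.5 library, with 2 of 2 lists then required of its cartilage, gave 1346 regions (without MC replicate 3) to 2084 (without FL replicate 3), with 1486 without FL replicate 2, 1557 without MC replicate 1 and 1590 without MC replicate 2.

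Looking each library up when it was not used in the choice gave a measure of how often such regions recur. Of the 3336 regions of both cartilages with no peak in E12.5 replicate 2, 27.1% had one in replicate 1, against 72.5% of the regions that replicate 2 did list. Of the 9696 with no peak in replicate 1, 74.9% had one in replicate 2, against 95.5%. Absence from replicate 1 alone was thus followed by presence in replicate 2 in most cases. Regions chosen by the other 5 E14.5 lists, and in no E12.5 list, had a peak in the held-out library in 65.8%, 64.2% and 75.8% of cases for MC replicates 1 to 3. For FL replicates 1 to 3 the shares were 84.0%, 92.8% and 66.5%. For regions in both E12.5 lists the held-out shares were 91.9% to 99.2%. In the authors' pooled ATAC lists, 73.7% of the late shared regions had a peak in MC, 88.1% in FL and 0.370% at E12.5.

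Regions seen late in one cartilage were shared by the other less than regions already listed at E12.5. Of 4521 regions in at least 2 MC lists and no E12.5 list, 2433 (53.8%) were in at least 2 FL lists, against 92.7% of those in both E12.5 lists. Of 11070 regions in at least 2 FL lists and no E12.5 list, 22% were in at least 2 MC lists, against 93.4%. These classes were not matched for rank or position. Both-cartilage regions in both E12.5 lists ranked higher than late shared ones and lay near a gene end more often (58.7% against 3.58%). The set of late forelimb regions has no earlier limb sample to be held against, so it can include regions that were open in the limb bud already.

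By position the late shared regions were mostly distal. Only 87 of them (3.58%, 95% Wilson interval 2.91 to 4.39, counting error only) lay at most 1 kb from a gene's start or end, against 14.6% of both-cartilage regions in 1 E12.5 list, 58.7% of those in both E12.5 lists and 13.7% of all regions. The share was 7.42% without E12.5 replicate 1 and 11.5% without replicate 2. The share was 3.54% for regions of MC alone (at least 2 MC lists and no FL or E12.5 list), 2.46% for those of FL alone and 10.2% for those of E12.5 alone. The median distance from a late shared region to a RefSeq start was 31.2 kb, against 1.20 kb for regions open at both stages and 22 kb for all regions. Their centres lay inside a gene span in 1143 cases (47.0%), against 70.9% and 56.9%. Exons and introns were not told apart here.

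The rule keeps only regions without an E12.5 peak. The median distance to the nearest such peak was 5982 bp; 150 (6.17%) had one within 500 bp and 860 (35.3%) had none within 10 kb. The median distance to the nearest other late shared region was 185858 bp, and 613 (25.2%) had one within 50 kb. Chains of 3 or more with gaps of at most 50 kb numbered 55 and held 181 regions. The chain with the most members had 6 of them over 115 kb in Fndc3b, a gene for a membrane protein with fibronectin type III domains (chr3:27584279-27699014). Chains of 5 lay in Ldlrad3, which encodes a receptor with LDL-receptor type A repeats (chr2:102126938-102176970), and beside Cd47, the surface protein that restrains phagocytosis (chr16:49923080-49997651). These distances and chains were not measured for other classes of regions. Whether late shared regions lie closer together than open regions in general cannot be read from them. Of the both-cartilage regions of a chromosome, late shared regions made up 11.2% on chromosome 3, 11.1% on 13 and 10.1% on 12, and 4.21% on X, 5.59% on 7 and 5.72% on 11.

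H3K27ac was not used by the rule. Of the 2346 distal late shared regions, 1703 (72.6%, 95% Wilson interval 70.8 to 74.4) had an MC pooled H3K27ac peak over the 500 bp at their centre and 1585 (67.6%, 65.6 to 69.4) an FL one. Among all distal regions the shares were 51.6% and 52.4%. Both pooled lists covered 1426 (60.8%) of the late shared regions, MC alone 277 (11.8%), FL alone 159 (6.78%) and neither 484 (20.6%). Distal regions open at both stages had higher shares, 79.8% in MC and 73.0% in FL, and both-cartilage regions in 1 E12.5 list had 64.1% and 59.2%. Regions of MC alone had 58.6% and 51.3%, and regions of FL alone had 37.2% and 41.2%. Distal regions of E12.5 alone, in both E12.5 lists and in no E14.5 ATAC list, still had 63.3% and 63.5%. Among late shared regions, the share was larger for those in all 6 ATAC lists, at 81.0% in MC and 77.2% in FL, than for those in 2 lists of each, at 68.5% and 62.8%. Pooled lists have no replicates, so these shares carry no test, and the pooled peaks are wide, with a median length of 5.51 kb for MC peaks and 7.36 kb for FL peaks. Together the pooled peaks covered 408 Mb in MC and 454 Mb in FL.

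Regions of like mean ATAC percentile were also set side by side. That mean was taken over the E14.5 lists that held a peak, and the number of such lists was not matched. Between the mean percentiles 50 and 75, 75.6% of 858 late shared regions were under MC H3K27ac and 70.3% under FL H3K27ac, against 77.2% and 70.5% of 3193 regions open at both stages. Between 25 and 50, the late shared shares were 69.8% and 65.8%, against 77.1% and 71.4%. Between 75 and 100, the 34 late shared regions had 73.5% in both, against 85.2% and 77.4%, and between 0 and 25 the 162 late shared regions had 78.4% and 66%, against 81.1% and 76.1%. The late shared share was the lower one in each bin and cartilage, by amounts that followed no order of rank. The 87 regions near a gene end were under H3K27ac in 69.0% of cases in MC and 70.1% in FL, against 88.5% and 78.3% of those open at both stages.

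**Figure D2:**
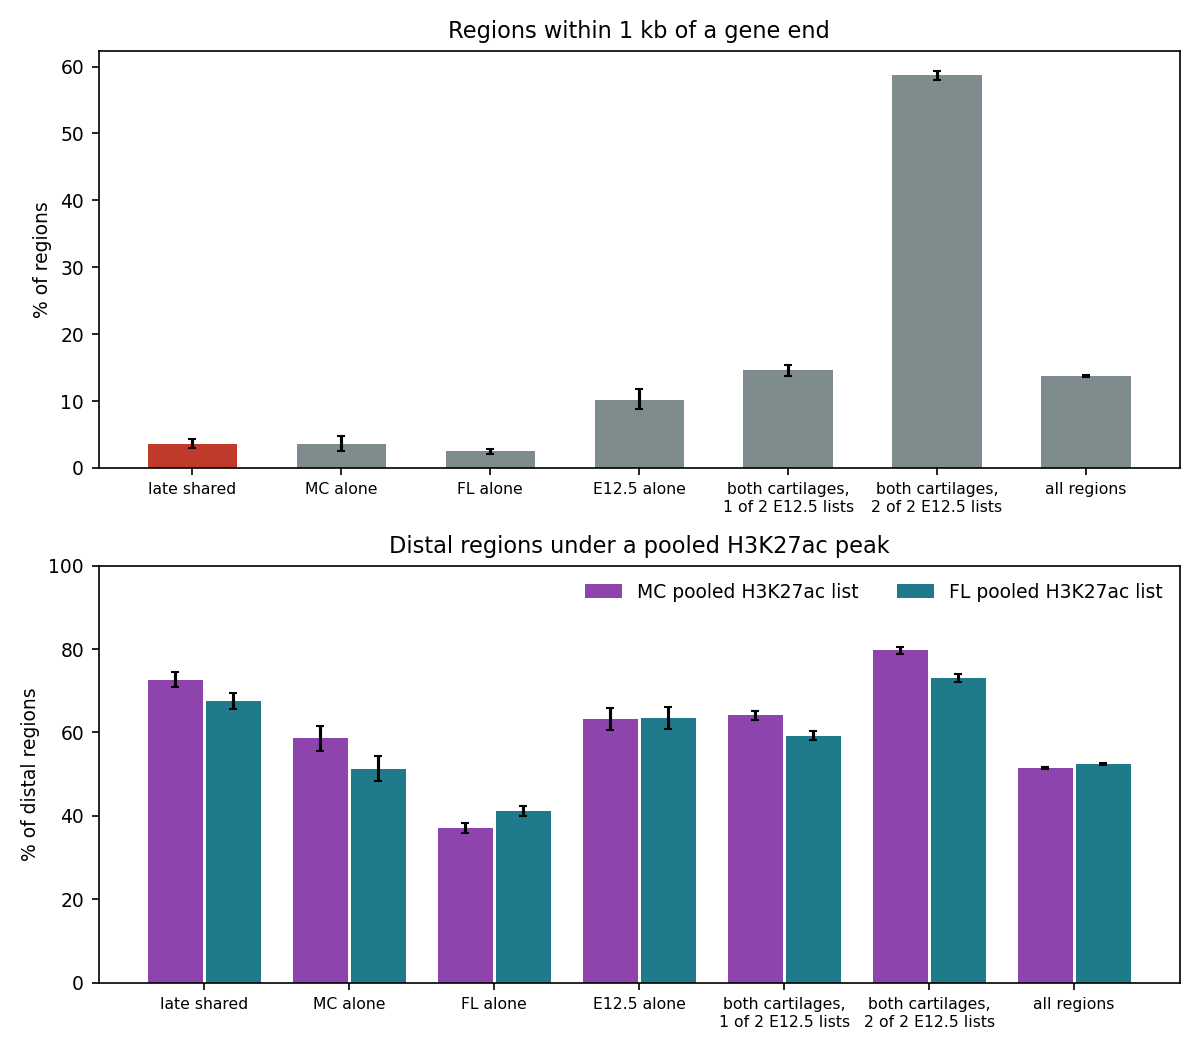
Share of regions within 1 kb of a gene end (upper panel, y axis in percent) and share of distal regions under a pooled H3K27ac peak (lower panel, MC purple and FL teal) for each class of regions (x axis), with 95% Wilson intervals. Late shared regions stand at 3.58% near a gene end and at 72.6% (MC) and 67.6% (FL) under H3K27ac.

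The single-library H3K27ac lists, whose highest signals were only 9 or 10, touched few regions of any class. They met 2.43%, 3.84% and 3.45% of distal late shared regions in MC replicates 1 to 3 and 3.58%, 3.07% and 2.86% in FL replicates 1 to 3. The 2 tissues overlapped: MC averaged 3.24% ± 0.727 and FL 3.17% ± 0.372 (SD, n = 3 each), a difference of 0.0710 points (two-sided exact permutation test, p = 1.00, with 0.1 the smallest possible). All distal regions other than the late shared ones were met in 2.31%, 2.81% and 2.40% in MC and 2.52%, 2.14% and 2.11% in FL. In each of the 6 libraries the late shared share was higher, by 0.824 ± 0.363 points (SD over libraries), with a two-sided exact sign-flip permutation p = 0.0312 and 0.0469 after Benjamini-Hochberg adjustment over 3 tests. The difference was 0.604 points, with an exact permutation p = 0.0625, when the lowest 25% of each H3K27ac list was dropped. The other distal regions include many in few ATAC lists, whereas each late shared region was in at least 2 lists per cartilage. The classes were not matched for number of lists or rank, so the difference cannot be put down to lateness. Against distal regions open at both stages, met in 3.10% to 4.36%, the late shared share was lower in 6 of 6 libraries, by a difference of -0.566 ± 0.302 points (exact permutation p = 0.0312, adjusted 0.0469), or -0.514 points (exact permutation p = 0.0625) without the lowest 25%. That last difference was 0.151 points (exact permutation p = 0.594) when the late shared regions were held to all 6 ATAC lists. Over whole regions, in place of the 500 bp at their centre, it was -2.78 points (exact permutation p = 0.0312). Its size thus depends on the overlap window. The part of region width (median 1063 bp against 1954 bp over all positions) was not tested. The smallest p that 6 libraries allow is 0.0312, so both differences stood at that limit.

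**Figure D3:**
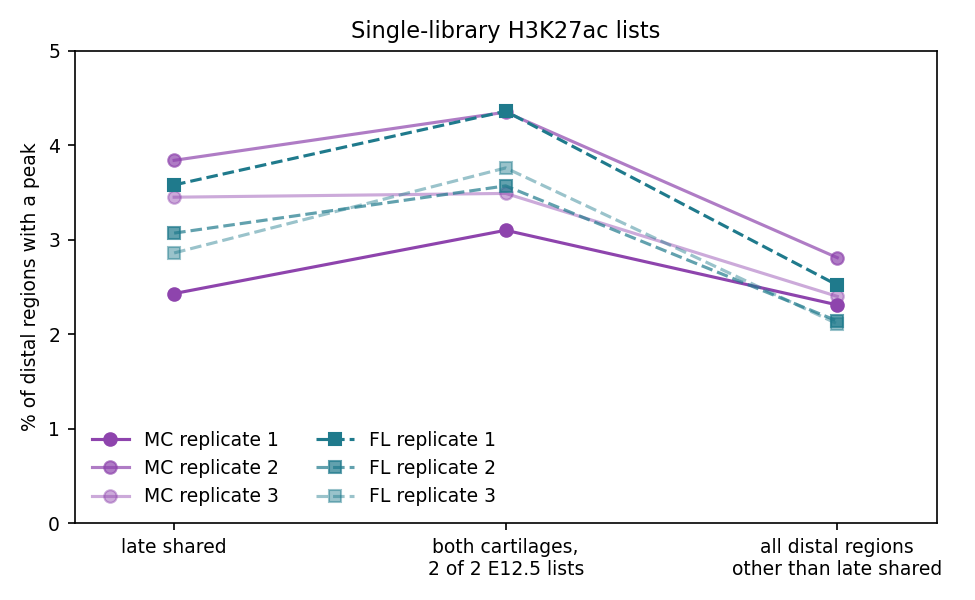
Share of distal regions with a peak in each single-library H3K27ac list (y axis, percent; lines join the values of 1 library) for late shared regions, regions of both cartilages in both E12.5 lists, and all distal regions other than the late shared ones. Each of the 6 libraries has its lowest value in the last class, and late shared regions lie between 2.43% and 3.84%.

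Regions were given to the gene whose span held the region's centre (the smallest where spans overlap) or otherwise to the nearest one within 1 Mb, which is a statement of position and not of regulation. The 2428 regions assigned this way fell to 1784 genes, 12.7% of the 14049 genes with any both-cartilage region. The count of genes was 5141 without E12.5 replicate 2, 1180 without FL replicate 2 and 1102 without MC replicate 3. One late shared region was assigned to 1350 of the genes, and 139 genes had 3 or more. Genes with long spans or wide flanks have more regions of every kind, so the number of late shared regions is given beside the gene's both-cartilage regions, of which 8.17% were late shared over all genes. These counts rest on the E12.5 lists: without E12.5 replicate 2, 15 of the 34 named genes stayed within 1.5 times their count.

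Frmd4a, a scaffold protein of cell polarity, had 8 late shared regions of 21 both-cartilage regions, all inside its span, and 6 of the 8 were under H3K27ac in each cartilage. Rad51b, a recombination repair gene, also had 8 of 21, and 6 of them were in all 6 lists. Mast4, a microtubule-associated kinase, had 7 of 14. Lmo4, a LIM-only transcription cofactor, had 6 of 10, none inside its 16.7 kb span and 3 of them under MC H3K27ac. Phactr2, a regulator of phosphatase and actin, had 6 of 12 and Fndc3b 6 of 14, all 12 under H3K27ac in both cartilages. Noct, a rhythmically expressed phosphatase, had 6 of 15, all outside its span. Regions in all 6 lists numbered 2 at Frmd4a, 1 each at Mast4 and Lmo4, 0 at Phactr2, 2 at Fndc3b and 4 at Noct. The highest shares among the 15 genes with the most late shared regions were those of Galnt10, which starts O-linked glycans, and Gas7, a growth arrest gene that acts on actin, with 4 of 5 each. Ties in count were broken by the larger share. Of the 36 genes with 4 late shared regions, only those with the highest shares thus entered the 15, and their high shares were set by the choice. Cd47 had 5 of 9, Dgki (a diacylglycerol kinase) 5 of 12, Ldlrad3 5 of 12, Apbb2 (an adaptor of the amyloid precursor protein) 4 of 6 and Gm52030, a predicted gene, 4 of 7.

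Among cartilage genes, the list of matrix and matrix assembly genes is described first. In that list, 27 of 134 both-cartilage regions were late shared (20.1%, Wilson 14.2 to 27.7), against 8.17% over all genes. They belonged to 12 of the 35 genes with a both-cartilage region, and 26 of 100 distal regions were late shared, against 13.6% of all distal ones. Xylt1, which starts the sugar chains of proteoglycans, had 6 of 13. Chst11, a chondroitin sulfotransferase, had 3 of 8, and Csgalnact1, which begins chondroitin chains, had 3 of 10. Papss2, which makes the sulfate donor, had 2 of 4, Plod2 and P3h2, which hydroxylate collagen, 2 of 5 each, and Cytl1 2 of 3. Hapln1, the link protein of aggrecan, had 1 of 4. The core protein gene Acan had 0 of 5, and Matn1 and Comp, both cartilage matrix proteins, had 0 of 3 each. These zeros depend on the E12.5 lists: Acan had 2 without E12.5 replicate 2, Comp had 2 without replicate 1, and Matn1 had 1 without either of them.

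The regions at Xylt1 show how such a set looks in single libraries. Of its 6, 4 lay inside the gene over 61.8 kb (chr7:117411737-117473547), and 5 were under H3K27ac in both cartilages. The region at chr7:117433448-117434307 was in all 6 lists, with percentiles of 63.3, 60.4 and 61.0 in MC replicates 1 to 3 and 84.1, 76.7 and 64.7 in FL replicates 1 to 3, so that each FL value was above each MC value. Percentiles come from lists of unequal length and do not measure how far a region is open in one tissue against the other. The region at chr7:117472095-117473547 stood at 63.3, 15.9 and 42.8 in MC and at 4.42 and 40 in FL replicates 2 and 3, and FL replicate 1 had no peak there. At Chst11, the region at chr10:83107415-83109435, inside the gene, was in all 6 lists at 83.8, 25.8 and 56.1 in MC and 71.1, 37.9 and 40 in FL. The groups overlapped there.

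Of the cartilage collagens, 6 of 33 both-cartilage regions were late shared (18.2%, Wilson 8.61 to 34.4), in 3 of 7 genes. With all 6 lists required, 1 of 33 was left (3.03%, against 2.3% of all). Col11a1, a chain of the fibril-forming collagen XI, had 3 of 7, Col27a1, another fibrillar collagen, had 2 of 10, and Col9a1 had its promoter alone, 1 of 6. All 3 Col11a1 regions were under MC H3K27ac and 1 was under FL H3K27ac. Col2a1, the chief collagen of cartilage, had 0 of 3. In the list of hypertrophy and bone-forming genes 9 of 68 were late shared (13.2%; 1 of 68 with all 6 lists required, against 2.3% of all), with 3 of 7 at Ank, a transporter that carries pyrophosphate out of cells, and 2 of 5 at Bmp6. Runx2, the driver of osteoblasts and hypertrophic chondrocytes, had 0 of 6 (2 without E12.5 replicate 2), and Ihh had no both-cartilage region at all.

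The list of chondrogenic transcription regulators had 24 late shared of 188 both-cartilage regions (12.8%). Among distal regions it had 23 of 165 (13.9%), near the 13.6% of all distal regions. Sox9 had 4 of 8. Nfib and Nfia, nuclear factor I proteins, had 4 of 18 and 3 of 24. Arid5b, which works with Sox9 on cartilage genes, had 3 of 9. Sox5 had 2 of 11, Sox6 2 of 11 and Trps1, a GATA-type repressor, 2 of 8. Wwp2, a ubiquitin ligase that is a Sox9 target, had 0 of 6, but 5 without E12.5 replicate 2 and 2 with equal numbers of peaks from every list.

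At Sox9, all 4 late shared regions were under MC H3K27ac and 3 of them under FL H3K27ac, and their ranks varied. The region at chr11:112610754-112611556, 171 kb below the gene span, was in all 6 lists, with percentiles of 22.7, 43.3 and 13.4 in MC replicates 1 to 3 and 25.7, 66.9 and 26.9 in FL replicates 1 to 3. The region at chr11:112298605-112299570, 483 kb away, had 4.96 and 55.7 in MC replicates 1 and 2, no peak in MC replicate 3, and 87.1, 74.0 and 26.9 in FL. Another, at chr11:112779068-112780585, lay 2.38 kb from the span, and the last, at chr11:112787628-112788958, covered its upper end. Each was in 2 MC and 2 FL lists, with percentiles of 0.913 to 40. The first 3 were under H3K27ac in both cartilages and the last in MC alone. The other 4 both-cartilage regions of Sox9 were in 1 or both E12.5 lists, one of them inside the gene in all 8 lists. Only 1 of the 4 late shared regions at Sox9 remained when all 6 E14.5 lists were required, and 1 when every list was held to the same number of peaks.

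**Figure D4:**
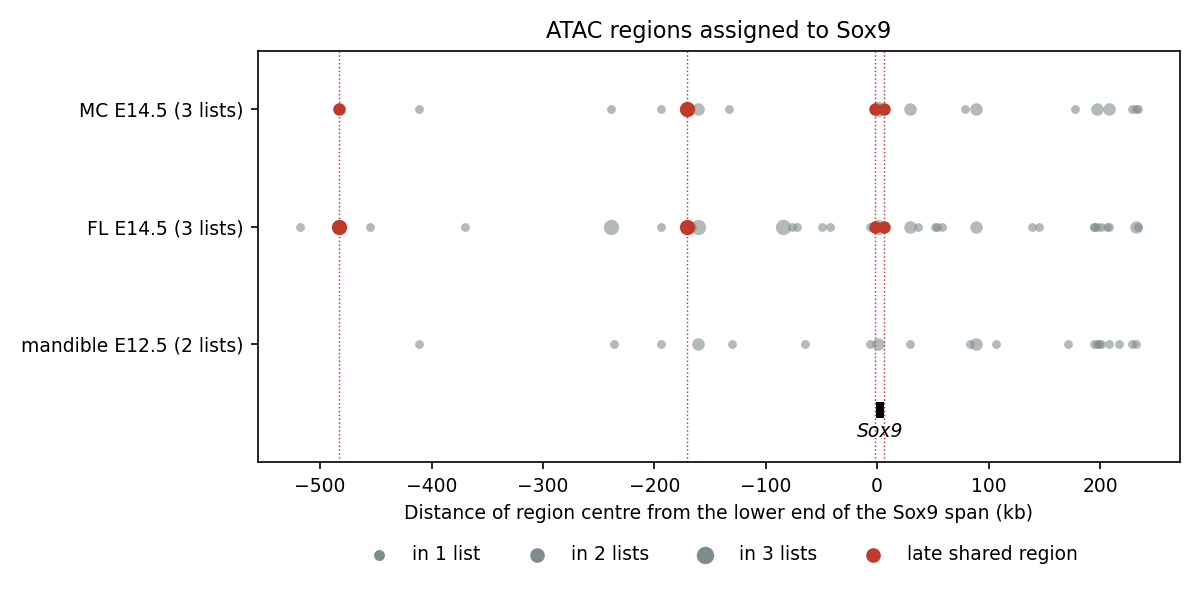
ATAC regions assigned to Sox9 by distance of their centre from the lower end of the gene span (x axis, kb) in MC, FL and E12.5 mandible lists (rows); dot size gives the number of lists with a peak, red dots and dotted lines mark late shared regions, and the black bar is the gene. The 4 late shared regions lie at -483, -171, -2.38 and 6.08 kb and have no dot in the E12.5 row.

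Sox5 had a region in all 6 lists inside its span, chr6:144298637-144300098, at 22.7, 35.1 and 23.8 in MC and 71.1, 66.9 and 73.1 in FL, with every FL value above every MC value. Trps1 had a pair of regions in all 6 lists, both outside the gene (482 kb and 716 kb away) and neither under H3K27ac in either cartilage. The one at chr15:50171956-50172702 reached 90.9, 68.0 and 33.9 in MC and 82.4, 88.5 and 64.7 in FL. A high rank in the ATAC lists thus did not always go with the mark.

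Among the signalling lists, FGF genes had 13 of 85 both-cartilage regions late shared (15.3%), BMP and GDF genes 15 of 107 (14%), TGF-beta genes 15 of 110 (13.6%), hedgehog genes 10 of 103 (9.71%) and Wnt genes 13 of 152 (8.55%). Among distal regions, of which 13.6% were late shared over all genes, the shares were 19.7% for FGF, 19.7% for BMP and GDF, 17.4% for TGF-beta, 11.8% for hedgehog and 11.4% for Wnt genes. With all 6 lists required, 0 of 110 TGF-beta regions were left, against 2.3% of all both-cartilage regions. Members with 3 each were Fgf2, a ligand (of 6), Spred2, an inhibitor of the FGF signal (of 13), Bmper, an extracellular BMP modulator (of 7), Ltbp1, which holds latent TGF-beta in the matrix (of 9), Gli2, a hedgehog effector (of 20), Gas1, a hedgehog co-receptor (of 17), and Tcf7l2, a Wnt effector (of 12). Jaw patterning genes had 15 of 116 (12.9%), led by 3 each at Ednra, the endothelin receptor of jaw patterning, Ets1 and Eya1, and limb patterning genes 11 of 102 (10.8%), among them 2 of 2 at Tbx4 and 1 of 1 at Tbx5 and Hoxd13. Mesenchyme and perichondrium genes had 15 of 123 (12.2%), actin and adhesion genes 17 of 198 (8.59%), 4 of them at Tnc, which encodes tenascin, and the list of AP-1 and stress response factors 10 of 103 (9.71%). The distal shares of these lists were 16.9% for jaw, 13.5% for limb, 15.7% for mesenchyme, 10.7% for actin and adhesion, and 13.7% for AP-1 and stress genes. Of the 20 lists, 16 were above the share over all regions, and 12 were above the share over distal regions.

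The lists for other cell types gave mixed counts. Late shared regions were 1 of 25 for skeletal muscle genes (4.00%, at Actc1), 1 of 28 for epithelium (3.57%, at Epcam), 2 of 31 for blood and immune cells (6.45%, both at Runx1), 3 of 31 for neurons and Schwann cells (9.68%) and 7 of 52 for endothelium (13.5%). The endothelial ones were at 3 of 17 genes, 4 of 12 at Cdh5, the cadherin of vessel walls, 2 of 9 at Erg and 1 of 1 at Tie1, and their part in the other counts was not tested. Among distal regions, the shares were 17.6% for neurons and Schwann cells and 17.5% for endothelium, against 13.6% of all. They were 7.14% for blood and immune cells, 6.25% for epithelium and 0% for skeletal muscle. The endothelial list was above the matrix list with equal numbers of peaks (30.8% against 28.4%) and without E12.5 replicate 2 (50.0% against 43.0%). It was below the matrix list without replicate 1 (17.6% against 31.2%) and with all 6 lists required (3.85% against 5.97%). Of the genes that all cells use, 0 of 32 regions were late shared. These lists share genes with wide and narrow flanks in differing numbers, and the counts are not tests. As to the labelled tissue, Sox9, Col2a1, Acan, Matn1, Hapln1, Col9a1 and Col11a1, the defining genes of chondrocytes, each had 3 to 8 both-cartilage regions. Such counts do not single out chondrocytes. Among genes of the other cell types that had a late shared region, Runx1 had 13, Cdh5 12, Erg 9 and Ncam1 7, whereas Epcam and Isl1 had 4, Actc1 2 and Tie1 1. Those genes are a chosen part of their lists, and many others had no both-cartilage region. At least 1 such region was present at 6 of 21 blood and immune, 13 of 20 skeletal muscle and 14 of 20 epithelial genes. The same held for 17 of 20 genes of neurons and Schwann cells and 17 of 19 endothelial genes. Peak lists give no expression.

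**Figure D5:**
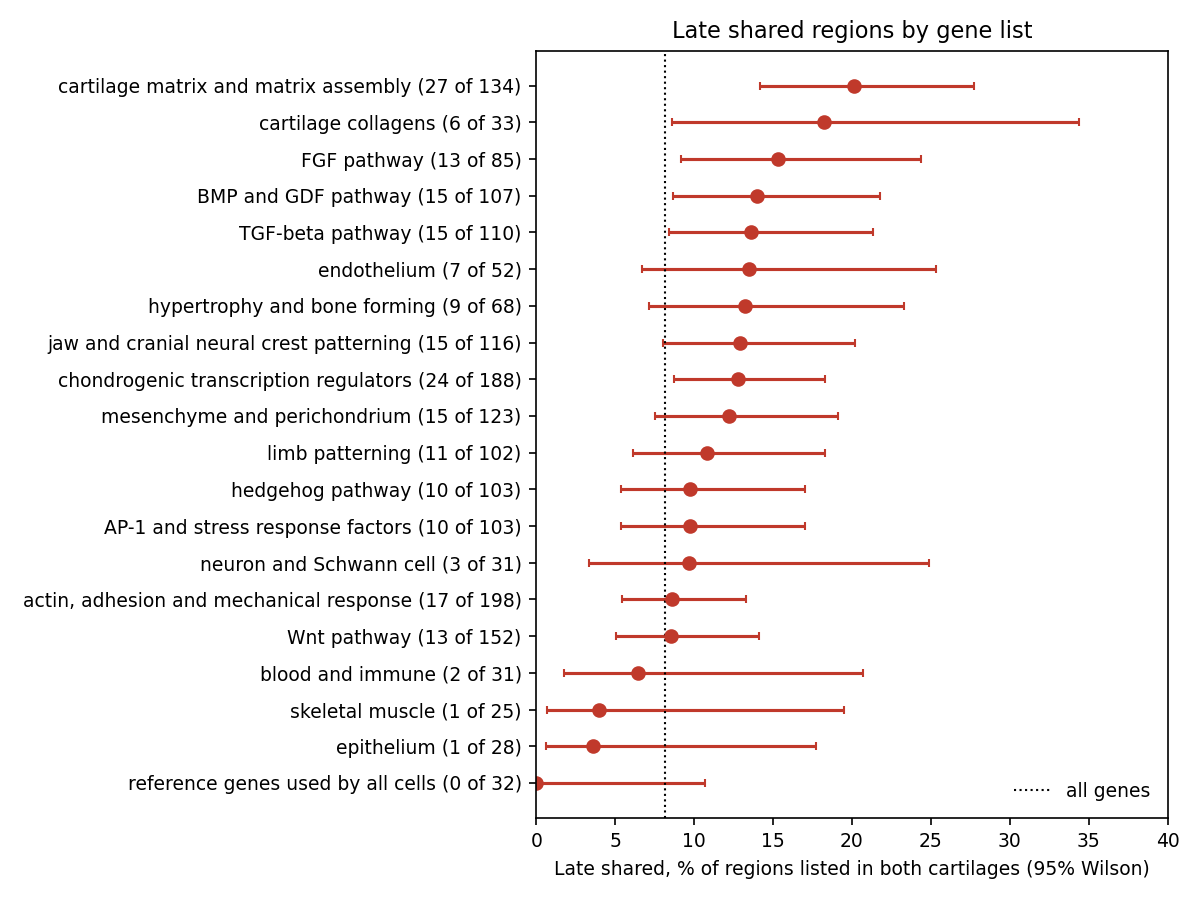
Late shared regions as a percent of the both-cartilage regions of each gene list (x axis; points with 95% Wilson intervals that cover counting error only), with the counts beside each list name. The dotted line is the share over all genes, 8.17%, and the matrix list stands at 20.1%.

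The 10 highest ranked single regions were not assigned to genes of the cartilage lists. Those lists held few late shared regions in any case. Of the 2428 assigned, 27 were at matrix genes, 24 at chondrogenic regulators, 9 at hypertrophy genes and 6 at cartilage collagens. Their absence from a group of 10 therefore says little. By the worst percentile over the 6 E14.5 lists, the first was at chr10:96697333-96698322, 75 kb from Btg1, an antiproliferative gene, with 92.4, 83.7 and 79.1 in MC replicates 1 to 3 and 90.3, 90.5 and 80.7 in FL replicates 1 to 3. The second was at chr2:174199462-174201190, 77.6 kb from the aminopeptidase gene Npepl1, with 92.4, 83.7 and 82.1 in MC and 91.2, 78.8 and 89.0 in FL. MC and FL overlapped at both, and both lay under H3K27ac in each cartilage. The third, at chr12:10513776-10514868 and 119 kb from the retinol dehydrogenase gene Rdh14, had 86.8, 75.7 and 77.4 in MC and 89.4, 88.5 and 80.7 in FL and lay under H3K27ac in neither. The next were nearest to or in Reep3, Fam180a, Sec16b, Nsmce2, Ywhaq, Cd47 and 4930523C07Rik. Of these 7, Fam180a, Nsmce2, Cd47 and 4930523C07Rik were under H3K27ac in both cartilages, Reep3 in FL alone, Sec16b in MC alone and Ywhaq in neither.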

How the data were processed

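Peak lists of 8 ATAC-seq and 6 H3K27ac CUT&Tag libraries of mouse MC, FL and E12.5 mandible, and the authors' pooled lists, were used. The submitters' processing notes name Trim Galore, Bowtie2 and SAMtools with the build mm10, as well as Genrich and SEACR for peaks; versions and thresholds are not given in the sources used here. The deposited ATAC lists hold for each peak a score, an area signal of at least 200 and a −log10 p value; the deposited H3K27ac lists hold a total signal and a highest signal. These are the authors' values and were used only to rank or filter peaks within a list.

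Peaks that overlapped or touched were merged in Python 3.11.15 with numpy 2.4.6 and pandas 2.3.3. Gene spans (21631 genes) and promoter windows came from RefSeq tables of GRCm38.p6, without exons. Distal means over 1 kb from both ends of every gene. Wilson intervals (95%) cover counting error only. Overlap, merging and gene assignment were tested on simulated intervals.

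The members, gene lists and motifs were chosen with earlier results of these data known. Named genes are the 15 with the most members, genes of the 4 cartilage lists with 3 or more, and 12 fixed cartilage genes. Ties among the 15 went to the gene with the larger share of late shared regions, then by name. Named regions are the 10 with the best worst rank. Genes named beyond this in the lists were chosen after their values were seen. Hi-C and 4C samples were not analysed here.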

Additional observations from a re-analysis of the deposited data

How the results depend on the processing

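Depth is unknown for every list, which limits any statement on absence. Leaving out each library in turn gave 1346 to 9710 late shared regions, 64.2% to 77.2% of distal ones under MC and 58.9% to 72.9% under FL pooled H3K27ac, 3.05% to 11.5% near a gene end and 1102 to 5141 genes; the upper ends of the counts came without E12.5 replicate 2. Requiring all 6 E14.5 lists gave 686 regions, 604 genes and H3K27ac shares of 81.0% (MC) and 77.2% (FL). Dropping the lowest 25% of each ATAC list gave 75.2%, 70.3% and 5.06% near a gene end, holding every list to equal numbers of peaks gave 75.6%, 70.7% and 6.54%, and dropping the lowest 25% of the pooled H3K27ac lists gave 64.8% (MC) and 61.6% (FL). A gene end of 2.5 kb gave 6.91%. Merging peaks up to 200 bp apart, merging E14.5 peaks alone, and asking for no E12.5 peak within 500 bp or in the pooled list moved none of these 5 results beyond its counting error or, for counts, 1.5 times; nor did the other overlap windows for H3K27ac or a gene limit of 100 kb. In the single-library H3K27ac lists, dropping their lowest 25% gave differences of 0.604 against other distal regions and -0.514 points against regions open at both stages (exact permutation p = 0.0625 each). Leaving out a library gave 0.777 to 0.964 and -0.672 to -0.500 points, where 5 libraries cannot go below an exact p of 0.0625. Whole regions in place of the centre window gave 0.873 and -2.78 points (exact permutation p = 0.0312 each). MC minus FL ranged from -0.227 to 0.476 points over left-out libraries; it was -0.0853 without FL replicate 3, -0.227 without MC replicate 2 and -0.0355 without MC replicate 3, and -1.21 with all 6 ATAC lists required (exact permutation p = 0.1), where the difference against regions open at both stages was 0.151; the cause was not tested. With MC and FL paired by replicate number (replicate block), the MC minus FL difference was 0.0710 points (exact permutation p = 1.00); the labels give no sign that numbers pair libraries. The AP-1 share of promoters, with alternatives chosen after seeing the data, was 13.2% with the same number of peaks, 14.4% without E12.5 replicate 1 and 8.05% without replicate 2, and the NFI-type share was 18.1%, 22.5% and 14.3%; with all 6 lists required they were 29.0% and 25.8%. Of the 20 gene lists, 16 were above the share of all genes, 14 to 18 under the 4 alternatives, and 12 among distal regions alone. Of 34 named genes, the count of late shared regions stayed within 1.5 times in 11 with all 6 lists required, 24 with the same number of peaks, 32 without E12.5 replicate 1 and 15 without replicate 2.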
